A study of Mus musculus with 26 samples.

Results

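The mammary stroma of young mice null for Snai2 was compared with wild-type stroma of the same age. The comparison rests on 4 of the 26 libraries of the series, taken by their labels for cell type, age and genotype. Null stroma (genotype label Snai2-LacZ/LacZ, 3 months) came from the pools named F82 and F84, and wild-type stroma (3 months) from the pools F79 and F81. All 4 pools are of the strain B6.129S1, and each holds cells of 3 mice. Cells were sorted by EpCAM, a surface protein of epithelial cells, and CD49f, an integrin that is high on basal cells, and the stromal gate was sequenced as bulk RNA. The same pools also gave luminal libraries at 3 months, used below for comparison. Stroma of 12-month mice, null (pools A5 and A6) and wild type (A1 and A2), of the same strain and genotype labels, is set beside it at the end. The labels name the allele but not which segment of the gene LacZ replaces, and the luminal libraries carry the same genotype labels as the stroma.

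Snai2 encodes Slug, a zinc-finger transcription factor of the SNAIL family that binds E-box DNA and represses genes of epithelial junctions. It is known for its part in the epithelial to mesenchymal transition, and in the mammary gland it is expressed by basal epithelial cells and by stromal cells. Mammary stroma consists mostly of fibroblasts, which make collagens and other matrix proteins, with vessels, fat-cell precursors and immune cells between them.

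Library totals were 6799038 counts for F82 and 4228734 for F84 in null stroma, and 4568078 for F79 and 3826528 for F81 in wild-type stroma. Levels are given as CPM, counts per 1e+06 counts of a library, scaled for composition. Fold changes are log2 values, null minus wild type, from a fit to all 12 libraries of 3-month mice. Their standard error (SE) was back-computed as the absolute fold change over the square root of the test's F statistic. The quasi-likelihood test of edgeR gave the p-values, which were adjusted by Benjamini and Hochberg over 14718 tested genes. The stromal label held against the markers. On a scale shared by all libraries of the series Col1a1 lay between 2159 and 7395 CPM and Postn between 2690 and 6793 CPM, while Krt14, a basal keratin, lay between 2.79 and 8.68 CPM. One null library stood apart. Across 9687 genes the log2 levels of F82 and F84 correlated at r = 0.927, whereas F82 correlated at 0.956 and 0.948 with the wild-type libraries F79 and F81, and the wild-type pair correlated at 0.966. F84 correlated at 0.929 and 0.919 with F79 and F81. Results that rest on both null libraries are therefore also given for F82 alone where they lead the text.

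Null and wild-type stroma at 3 months differed in the test by a single gene. Of the 14718 genes 1 was called higher in null stroma (0.00679%) and 0 were called lower (0%) at an adjusted p under 0.05. At an unadjusted p under 0.05, 251 genes (1.71%) were higher and 475 (3.23%) were lower. Both null libraries lay above both wild-type ones for 2635 genes (17.9%), and both lay below for 3159 genes (21.5%). These shares are the background against which every count below is read. The gene called was Rpl34-ps1, a processed pseudogene of a ribosomal protein gene. Other tools and settings called between 0 and 54 genes. For genes below that did not pass the test, levels are given as values.

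**Figure D1:**
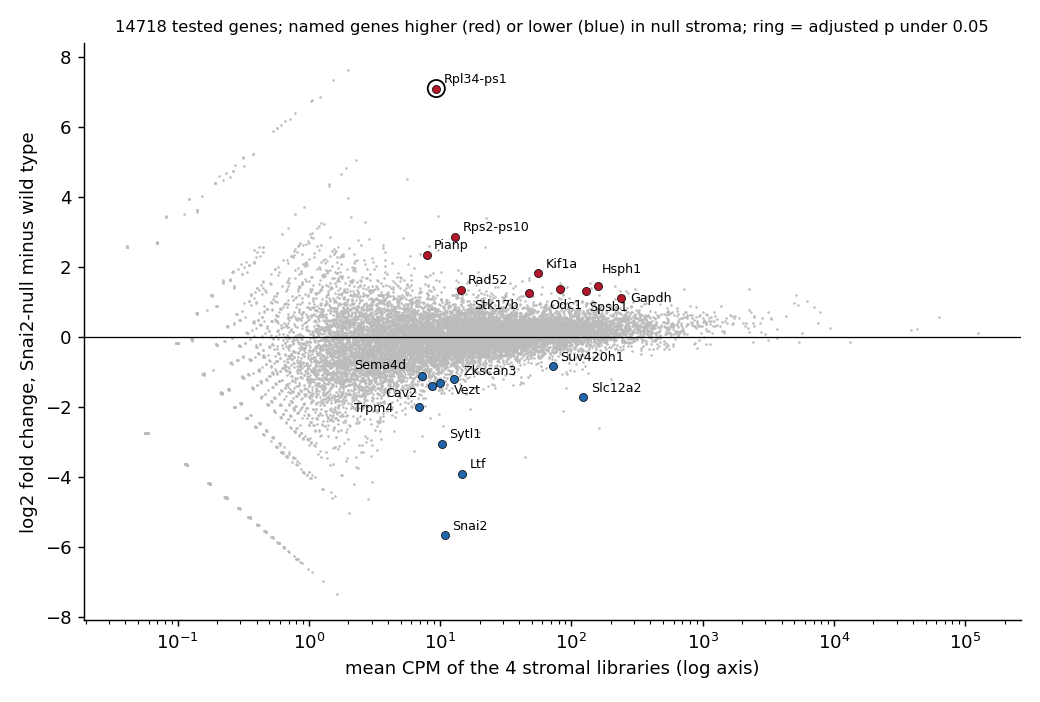
Log2 fold change of each of 14718 tested genes, null minus wild-type stroma (vertical axis), against the mean CPM of the 4 libraries (horizontal log axis). Coloured points are the named genes, and the ring marks Rpl34-ps1, the gene with an adjusted p under 0.05; fitted folds of genes at or near 0 counts in one genotype, such as Rpl34-ps1 and Snai2, depend on the small count added by the fit.

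Snai2 itself checks the labels. The gene (ENSMUSG00000022676, GRCm38 chromosome 16, positions 14705852 to 14709385, plus strand) had 0.655 and 0 CPM in null stroma, against 27.5 and 15.2 CPM in wild-type stroma. The null libraries held 4 counts in all, and the wild-type libraries 185. The log2 fold change was -5.68 ± 1.56 (SE), with an adjusted p of 0.952 from edgeR's quasi-likelihood test and an unadjusted p of 0.00562. The groups did not overlap, and both null stromal libraries lay near 0. The fraction labelled luminal-basal of the null pool F82, which is also in the fit, held 44 Snai2 counts (5.76 CPM over all libraries), while that of F84 held 0. Counts are per whole gene, so reads from a part of the gene that the allele keeps cannot be told apart from reads across the replaced part. In a fit to stromal libraries of both ages the adjusted p was 0.0144.

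The other transcription factors of the epithelial to mesenchymal transition did not separate the genotypes in the test. Snai1, which encodes Snail and is the closest paralogue in this role, had 9.01 and 7.30 CPM in null stroma, against 6.13 and 5.21 CPM in wild-type stroma. Its log2 fold change was 0.53 ± 0.80 (SE; adjusted p = 0.983, edgeR), with an interval from -1.19 to 2.24 at a level of 0.95. Zeb2, a zinc-finger repressor of the same programme, had 649 and 657 CPM in null stroma and 756 and 530 CPM in wild-type stroma. Tcf4, an E-protein partner, had 606 and 576 CPM in null stroma and 538 and 580 CPM in wild-type stroma. Prrx1, a homeobox factor of mesenchyme, had 513 and 390 CPM in null stroma and 550 and 443 CPM in wild-type stroma. For all 3 the libraries of the genotypes overlapped. Of 19 tested members of this list, Snai2 included, 0 were called by edgeR, 3 were higher and 5, Snai2 among them, were lower in both null libraries, and the median log2 fold change was -0.01 against 0.00 over all genes tested.

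**Figure D2:**
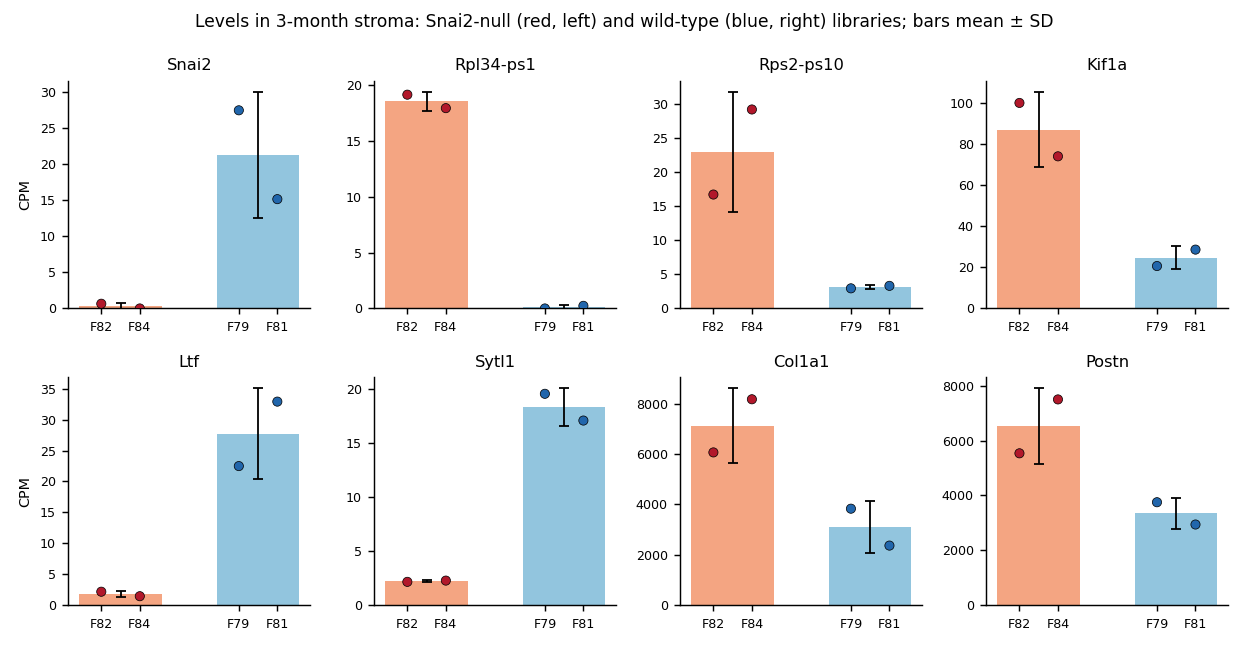
CPM (vertical axes, each from 0) of 8 genes in the null stromal libraries F82 and F84 (red, left) and the wild-type libraries F79 and F81 (blue, right); bars are means with SD of 2 libraries. Snai2, Ltf and Sytl1 sit near 0 in both null libraries, Rpl34-ps1 sits near 0 in both wild-type libraries, and Col1a1 and Postn lie higher in both null libraries.

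Rpl34-ps1 (ENSMUSG00000068396, GRCm38 chromosome 6, positions 71124610 to 71124963, plus strand) had 19.2 and 18.0 CPM in null stroma, against 0 and 0.237 CPM in wild-type stroma. The null libraries held 181 counts and the wild-type libraries 1 count. The ratio of scaled counts was 161, with an exact binomial interval from 28.6 to 6413 at a level of 0.95 that covers counting error only. The fitted log2 fold change was 7.09 ± 0.77 (SE), and the adjusted p was 0.00943 (edgeR). It was no longer called without F79 (adjusted p = 0.11), without F81 (0.13), with all 26 libraries sharing the spread (0.48), or by limma voom with the pool as a block (0.286) or without it (0.267). Its parent Rpl34, which encodes a protein of the large ribosomal subunit, had 47.8 and 56.4 CPM in null stroma, against 47.0 and 53.8 CPM in wild-type stroma. The parent's log2 fold change was 0.05 ± 0.29 (SE). The pseudogene is a near copy: its 354 bases align without a gap to the transcript Rpl34-201 and differ from it at 2 of them. Counts of the pair therefore depend on how reads that fit both places were assigned, which is not given in the sources used here. No other annotated gene overlaps the pseudogene. Its bases 55 to 354, chr6:71124664-71124963 of GRCm38, plus strand, read as follows from the GENCODE vM21 transcripts. The capitals mark the substitutions T132C and C318G, with the parent's base first and positions counted from 1 at the pseudogene's 5′ end. They are shown because the copies differ at these bases alone.
Rpl34-ps1: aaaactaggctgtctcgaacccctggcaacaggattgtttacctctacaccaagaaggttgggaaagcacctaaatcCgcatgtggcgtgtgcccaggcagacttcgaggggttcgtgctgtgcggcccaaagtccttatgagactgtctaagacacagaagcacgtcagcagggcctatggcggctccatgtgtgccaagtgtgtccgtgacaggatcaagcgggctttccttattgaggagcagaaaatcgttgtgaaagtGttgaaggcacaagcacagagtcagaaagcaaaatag

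A like case, not called, was Rps2-ps10 (chromosome 18, positions 61259008 to 61259972, minus strand), a pseudogene of another ribosomal protein gene. It had 16.7 and 29.2 CPM in null stroma, against 2.95 and 3.32 CPM in wild-type stroma. The log2 fold change was 2.86 ± 0.47 (SE; adjusted p = 0.237, edgeR), and DESeq2 gave an adjusted p of 0.000555. Its parent Rps2, of the small ribosomal subunit, had 71.9 and 90.9 CPM in null stroma and 67.2 and 97.8 CPM in wild-type stroma, and these overlapped. Both pseudogenes separated the genotypes in luminal cells of the same mice too. Rpl34-ps1 had 19.9 and 14.5 CPM in null luminal cells, against 0 and 0 CPM in wild-type ones, and it was the single gene called there (0.00679% of those tested). Rps2-ps10 had 28.2 and 25.4 CPM in null luminal cells, against 6.56 and 3.96 CPM in wild-type ones. The luminal fold of Rpl34-ps1 has no count in its denominator and is not given.

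After the pseudogenes, 8 genes of at least 10 CPM with separated libraries and the smallest p were named on the higher side. None of them was called in the edgeR fit to the 3-month libraries, and without the low-count filter Kif1a (adjusted p = 0.00218, edgeR) and Hsph1 (adjusted p = 0.0335) were. Kif1a, a kinesin motor that carries synaptic vesicle precursors along axons, had 100.1 and 74.1 CPM in null stroma, against 20.7 and 28.7 CPM in wild-type stroma. The log2 fold change of Kif1a was 1.82 ± 0.48 (SE; adjusted p = 0.952, edgeR). Hsph1, a heat shock chaperone of the HSP110 family, had 159 and 306 CPM in null stroma, against 84.7 and 84.1 CPM in wild-type stroma. Gapdh, the glycolytic enzyme, had 299 and 351 CPM in null stroma, against 163 and 141 CPM in wild-type stroma. Odc1, which starts polyamine synthesis, had 63.9 and 172.9 CPM in null stroma, against 46.5 and 45.0 CPM in wild-type stroma. Its excess rested mostly on F84, as did that of Spsb1, a substrate receptor of a ubiquitin ligase, with 113 and 252 CPM in null stroma against 81.7 and 66.6 CPM in wild-type stroma. Stk17b, a kinase of the death-associated family, had 52.8 and 80.8 CPM in null stroma and 32.2 and 23.4 CPM in wild-type stroma. Rad52, a DNA repair protein, had 17.2 and 24.1 CPM in null stroma and 8.18 and 8.05 CPM in wild-type stroma. Pianp, a neural membrane protein, had 6.22 and 20.2 CPM in null stroma and 2.72 and 2.37 CPM in wild-type stroma. The log2 fold changes of these genes ran between 1.10 for Gapdh and 2.34 for Pianp.

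Among the genes named on the lower side, Ltf and Sytl1 had the largest differences after Snai2. Ltf, the iron-binding milk and secretion protein lactoferrin, had 2.13 and 1.40 CPM in null stroma, against 22.5 and 32.9 CPM in wild-type stroma. Its log2 fold change was -3.91 ± 0.90 (SE; adjusted p = 0.952, edgeR), and it was called with the 4 stromal libraries alone (adjusted p = 0.0313) and by DESeq2 (adjusted p = 0.00101). Sytl1, a Rab effector of vesicle secretion, had 2.13 and 2.25 CPM in null stroma, against 19.5 and 17.1 CPM in wild-type stroma, a log2 fold change of -3.06 ± 0.59 (SE; adjusted p = 0.541, edgeR). In both cases the null libraries were close to each other and far below both wild-type ones. Slc12a2, the sodium, potassium and chloride cotransporter NKCC1, had 63.1 and 51.4 CPM in null stroma, against 119.9 and 259 CPM in wild-type stroma. Trpm4, a calcium-activated cation channel, had 3.60 and 1.68 CPM in null stroma, against 11.1 and 11.1 CPM in wild-type stroma. Cav2, a protein of caveolae, had 5.73 and 3.65 CPM in null stroma and 13.2 and 12.3 CPM in wild-type stroma. Vezt, which encodes vezatin of adherens junctions, had 6.39 and 4.77 CPM in null stroma and 14.3 and 14.2 CPM in wild-type stroma. Suv420h1, a histone H4 lysine methyltransferase, had 50.8 and 53.3 CPM in null stroma and 97.2 and 88.6 CPM in wild-type stroma. Zkscan3, a zinc-finger repressor, and Sema4d, a semaphorin, had log2 fold changes of -1.21 ± 0.37 and -1.13 ± 0.35 (SE). In the edgeR fit to the 3-month libraries none of these was called. Sytl1 was also called by DESeq2 (adjusted p = 0.00395), and Ltf, Sytl1 and Slc12a2 without the low-count filter. Each kept its direction in the 14 other fits tried, which could hardly reverse it, as separated libraries were a condition of being named.

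**Figure D3:**
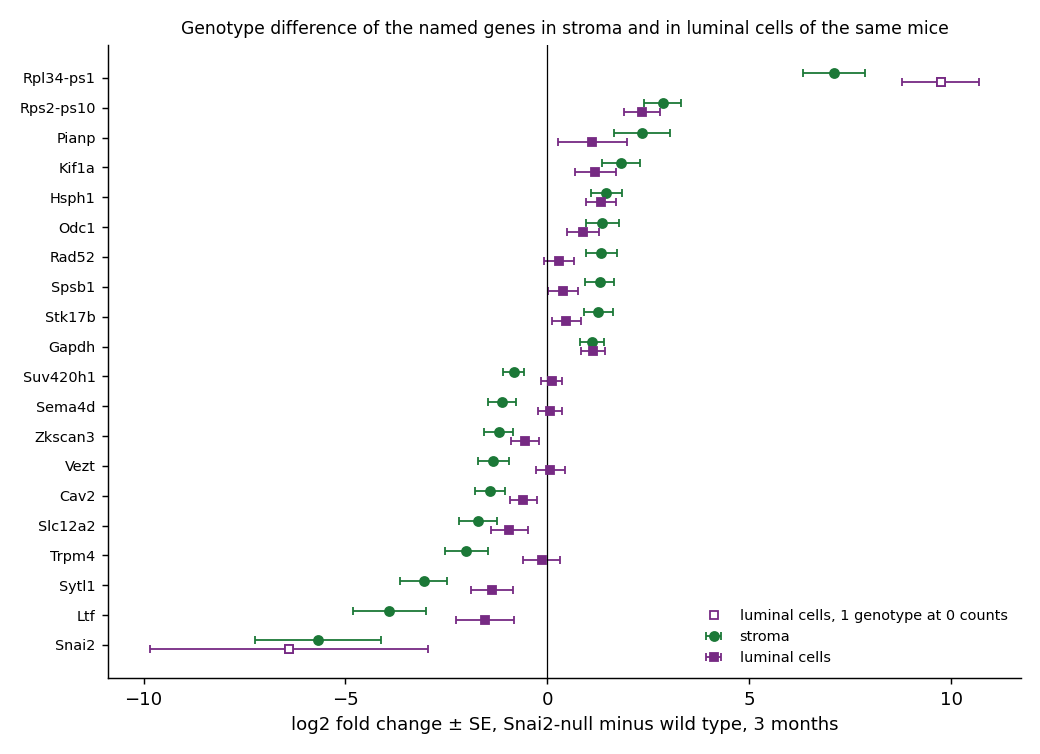
Log2 fold change ± SE, null minus wild type at 3 months (horizontal axis), of the 20 named genes in stroma (green circles) and in luminal cells of the same mice (purple squares). Open squares mark genes with 0 counts in one genotype of the luminal cells, whose fold depends on the count the fit adds; Gapdh and Hsph1 sit at like values in both fractions, and Trpm4, Vezt, Suv420h1 and Sema4d lie near 0 in luminal cells.

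The luminal libraries of the same pools show whether these values are particular to stroma. The test of the difference itself, stromal minus luminal, called 0 of 14718 genes (0%) with edgeR, with 385 genes at an unadjusted p under 0.05, the smallest of which was 0.000947. DESeq2 also called 0. Gapdh differed between genotypes by 1.10 ± 0.29 (SE) on the log2 scale in stroma and by 1.13 ± 0.29 in luminal cells. Hsph1 differed by 1.46 ± 0.38 in stroma and by 1.33 ± 0.38 in luminal cells. Kif1a was at 21.7 and 10.3 CPM in null luminal cells, against 3.93 and 10.2 CPM in wild-type ones. Ltf was at 49.6 and 62.9 CPM in null luminal cells, against 239 and 88.8 CPM in wild-type ones. Trpm4 had 26.6 and 11.5 CPM in null luminal cells and 24.7 and 17.4 CPM in wild-type ones, so those libraries overlapped. None of these differences between fractions passed the test. Several genes named on the lower side were more abundant in luminal cells. There Slc12a2 lay between 657 and 2171 CPM, Cav2 between 30.8 and 57.0, Vezt between 24.5 and 34.9 and Sema4d between 48.5 and 57.1. These ranges lie above the stromal ones, as do those of Ltf and Trpm4. The ranges of Sytl1, Suv420h1 and Zkscan3 overlapped the stromal ones, and Snai2 was lower in wild-type luminal cells, at 1.15 and 2.24 CPM.

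Of the matrix genes, the main product of fibroblasts, many but not all lay higher in both null libraries, and none was called by edgeR. Col1a1, the alpha 1 chain of type I collagen, had 6063 and 8177 CPM in null stroma, against 3825 and 2357 CPM in wild-type stroma. Its log2 fold change was 1.20 ± 0.74 (SE; adjusted p = 0.952, edgeR). Postn, which encodes periostin, a matrix protein that binds collagen and integrins, had 5541 and 7511 CPM in null stroma, against 3752 and 2938 CPM in wild-type stroma, a log2 fold change of 0.96 ± 0.40 (SE; adjusted p = 0.952). Sparc, a collagen-binding glycoprotein, had 6443 and 10188 CPM in null stroma, against 4780 and 3458 CPM in wild-type stroma. Fn1, which encodes fibronectin, had 8435 and 9783 CPM in null stroma, against 5655 and 4367 CPM in wild-type stroma. In each of these 4 genes F84 was the highest library and F81 the lowest. Dcn, which encodes the proteoglycan decorin, had 10672 and 9604 CPM in null stroma and 9472 and 7407 CPM in wild-type stroma, a difference of 0.26 ± 0.93 (SE) on the log2 scale.

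Of 20 collagens tested 12 were higher in both null libraries and 0 were lower, with a median log2 fold change of 0.45. Their summed level was 30938 and 36693 CPM in null stroma, against 23522 and 17043 CPM in wild-type stroma. Col3a1 of type III collagen had 8485 and 11166 CPM in null stroma, against 6776 and 5157 CPM in wild-type stroma. Col1a2, the other chain of type I collagen, had 5854 and 8038 CPM in null stroma, against 4270 and 3157 CPM in wild-type stroma. Col6a2, a chain of the beaded type VI collagen, had 2011 and 1383 CPM in null stroma and 1480 and 1017 CPM in wild-type stroma, and these overlapped. Of 31 matrix glycoproteins and proteoglycans 17 were higher and 1 was lower (median 0.39). Of 24 genes of crosslinking and remodelling 11 were higher and 2 were lower (median 0.41). With library totals alone these medians were 0.14 and 0.17, and with F82 alone on log2(CPM + 1) they were 0.34 and 0.19. Among those of highest CPM, Timp2, Mmp2 and Timp3, which encode metalloproteinases and their inhibitors, overlapped between genotypes. Adamts1, a secreted protease, had 1146 and 1499 CPM in null stroma, against 1086 and 868 CPM in wild-type stroma. With F82 alone set against the wild-type mean, on log2(CPM + 1), the median difference of the collagens was 0.49 and that of the 8 stromal markers 0.56. Library totals without a normalisation factor moved the median of all genes to -0.24 and that of the collagens to 0.21. In luminal cells the median genotype difference of the collagens was -0.28.

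**Figure D4:**
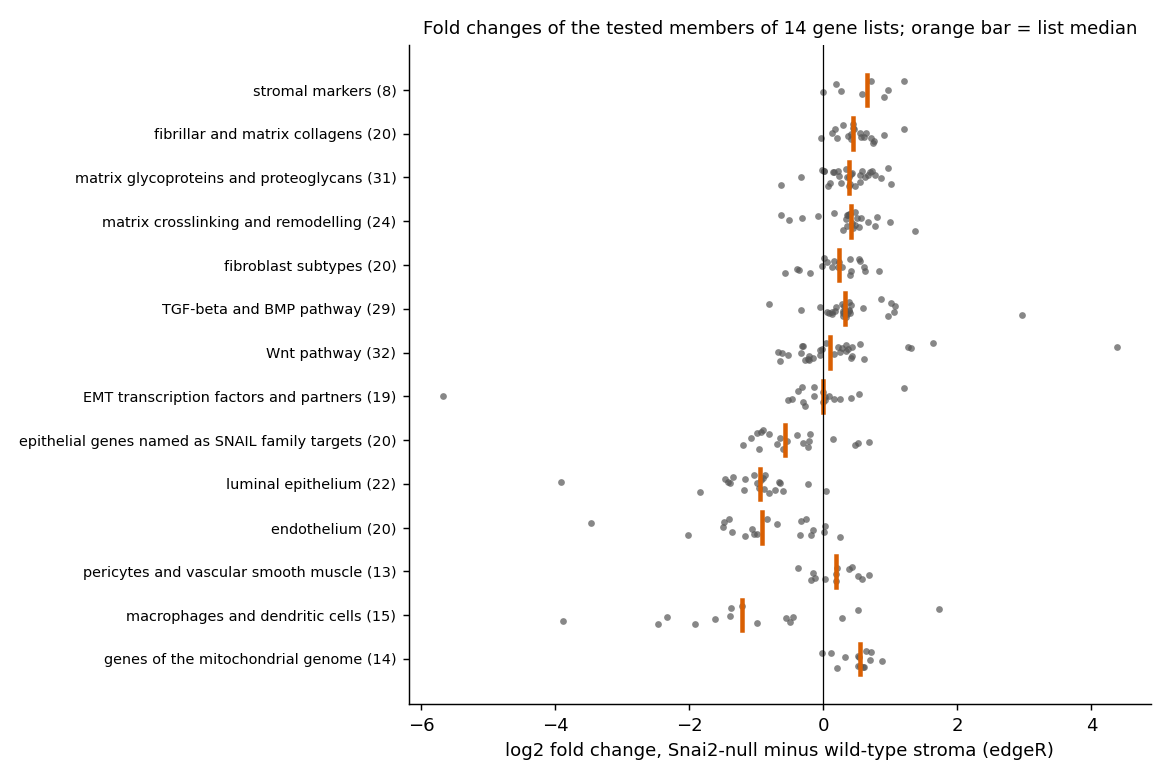
Log2 fold change, null minus wild-type stroma (horizontal axis), of each tested member (grey points) of 14 gene lists, with the number tested in parentheses and the list median as an orange bar. Medians of the matrix lists lie above 0 and those of the luminal, endothelial and macrophage lists below 0; no point shown has an adjusted p under 0.05.

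Signals of the TGF-beta family control matrix production by fibroblasts. Of 29 tested members 13 were higher and 1 was lower in both null libraries, 0 were called, and the median log2 fold change was 0.33. With library totals alone that median was 0.08, beside -0.24 for all genes. On log2(CPM + 1) it was 0.21 for F82 alone and 0.50 for F84 alone. Among ligand-binding proteins, Fstl1, a secreted follistatin-like protein, had 2833 and 3395 CPM in null stroma, against 2531 and 2259 CPM in wild-type stroma. Ltbp4, which holds latent TGF-beta in the matrix, had 668 and 875 CPM in null stroma, against 588 and 438 CPM in wild-type stroma. Among receptors, the coreceptor Tgfbr3 had 1046 and 1252 CPM in null stroma, against 901 and 817 CPM in wild-type stroma. Bmpr2 had 712 and 815 CPM in null stroma, against 685 and 563 CPM in wild-type stroma. The ligand Tgfb1 was looked at after its values were seen. Tgfb1 had 26.5 and 21.9 CPM in null stroma, against 12.5 and 11.6 CPM in wild-type stroma (adjusted p = 0.952, edgeR). Of 32 tested genes of the Wnt pathway 8 were higher and 3 were lower, with a median of 0.10. With library totals alone it was -0.14, beside the -0.24 of all genes, so it stayed slightly above the background. Its members of highest CPM were the coreceptor Lrp6 and the secreted inhibitors Sfrp2, Sfrp1 and Sfrp4. Lrp6 had 420 and 433 CPM in null stroma and 366 and 400 CPM in wild-type stroma.

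Fibroblast subtype markers gave no common direction: of 20 tested 5 were higher and 2 were lower, with a median of 0.23. With library totals alone it was -0.01, where the median of all genes was -0.24. Pi16, a marker of progenitor-like fibroblasts, had 457 and 470 CPM in null stroma and 431 and 489 CPM in wild-type stroma. Clec3b, of the same subtype, had 403 and 491 CPM in null stroma and 838 and 304 CPM in wild-type stroma, and the widest gap was between the wild-type libraries. Cd34 and Col15a1 overlapped between genotypes too. Of 19 tested genes of fat-cell precursors and adipogenesis 3 were higher and 3 were lower, and their median was 0.01, or -0.22 with library totals alone.

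Some luminal and endothelial markers lay lower in both null libraries, none of them called by edgeR, and their part in the results above was not tested. In bulk samples fewer cells of a type and less RNA per cell cannot be told apart. Of 22 luminal epithelial genes 12 were lower and 0 were higher in both null libraries (median -0.94). Their summed level was 580 and 368 CPM in null stroma, against 668 and 1028 CPM in wild-type stroma. Ltf belongs to this list. Epcam, the protein used as a sorting marker, had 95.7 and 37.0 CPM in null stroma, against 99.9 and 158 CPM in wild-type stroma. Krt19, a luminal keratin, had 89.0 and 42.9 CPM in null stroma and 80.6 and 129.6 CPM in wild-type stroma, and these overlapped. Esr1, the oestrogen receptor, which stromal cells express too, had 86.0 and 89.2 CPM in null stroma and 79.5 and 91.4 CPM in wild-type stroma. Of 20 endothelial genes 11 were lower and 0 were higher (median -0.91), with summed levels of 383 and 273 CPM in null stroma, against 436 and 543 CPM in wild-type stroma. Fabp4, a lipid-binding protein of capillary endothelium and fat cells, had 104 and 77.5 CPM in null stroma, against 142 and 181 CPM in wild-type stroma. Vwf, the clotting factor of endothelium, had 23.3 and 7.58 CPM in null stroma, against 25.0 and 46.0 CPM in wild-type stroma. In Epcam and Vwf F82 and F79 lay close to each other, and the gap between the genotypes came mostly from F84 and F81. With F82 alone the medians on log2(CPM + 1) were -0.57 for the luminal list and -0.51 for the endothelial list. In luminal cells the median genotype difference was -0.01 for the luminal list and -1.23 for the endothelial list. The lower endothelial values were thus not particular to stroma.

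The summed macrophage, T cell and muscle markers overlapped between genotypes. The 24 macrophage and dendritic cell markers summed to 125 and 30.6 CPM in null stroma and 61.8 and 151 CPM in wild-type stroma, with 15 tested, 4 lower and 0 higher, and Fcgr1 at 0 in all 4 libraries. The median log2 fold change of those tested was -1.21 in stroma and -0.61 in luminal cells. T and NK cell markers summed to 64.5 and 7.86 CPM in null stroma and 7.72 and 22.7 CPM in wild-type stroma, with Klrb1c at 0. Of 14 B and plasma cell genes 4 were tested, of which 3 were higher and 0 were lower. Igkc, the immunoglobulin kappa constant chain, had 19.7 and 8.42 CPM in null stroma, against 1.82 and 2.84 CPM in wild-type stroma. Another of the 3, Sdc1, had 138.9 and 138.6 CPM in null stroma, against 69.7 and 93.1 CPM in wild-type stroma. Sdc1 lay between 64.5 and 112 CPM in luminal cells too, so it does not mark B cells alone here. Skeletal muscle markers summed to 173 and 32.8 CPM in null stroma and 77.4 and 27.7 CPM in wild-type stroma. Pericyte and vascular smooth muscle genes summed to 1718 and 1069 CPM in null stroma and 1420 and 998 CPM in wild-type stroma, with 1 of 13 higher and 0 lower. Basal epithelial markers gave 2 higher and 2 lower of 19, with a median of -0.08.

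**Figure D5:**
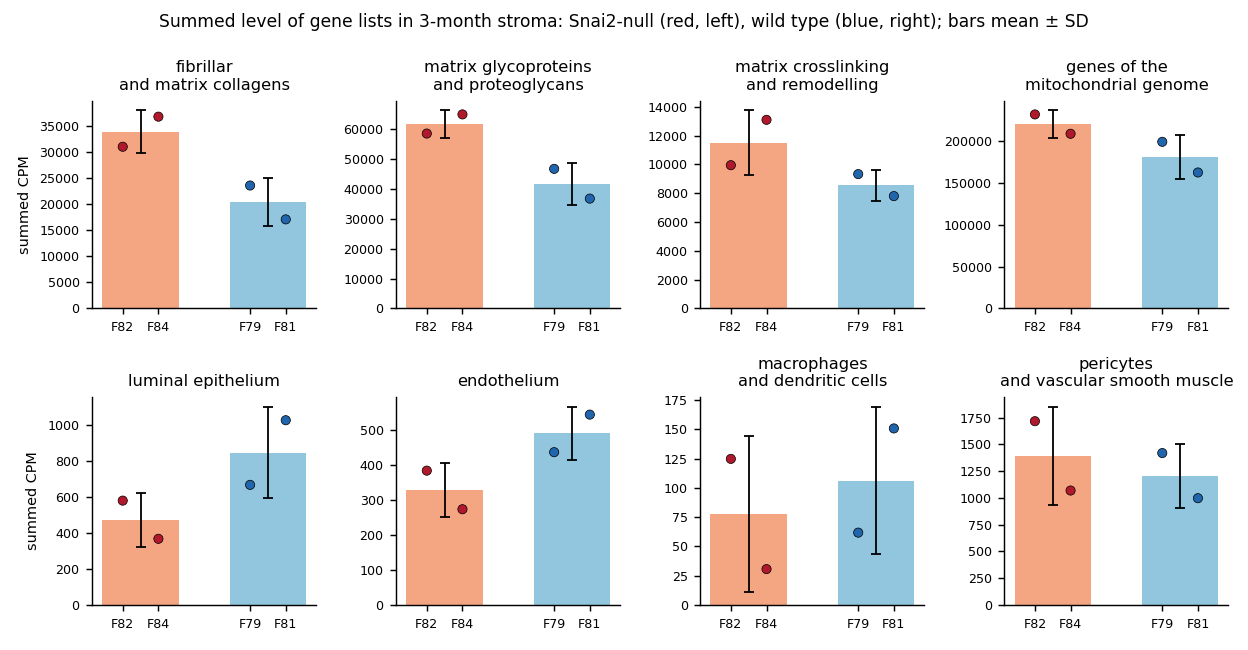
Summed CPM (vertical axes, each from 0) of 8 gene lists in the null libraries F82 and F84 (red, left) and the wild-type libraries F79 and F81 (blue, right); bars are means with SD of 2 libraries. The 3 matrix lists and the mitochondrial genes lie higher in both null libraries, the luminal and endothelial lists lie lower in both, and the macrophage and pericyte lists overlap between genotypes.

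The list of SNAIL target genes, which also holds the mesenchymal gene Vim, can be read in these libraries only beside the luminal list. The 2 lists share Cldn3, Cldn4, Cldn7, Epcam, Krt8 and Krt18. Of 20 tested 1 was higher and 7 were lower in both null libraries, with a median log2 fold change of -0.57. The member of highest CPM was Vim, the mesenchymal filament vimentin, which is no epithelial gene. Vim had 1994 and 2489 CPM in null stroma, against 1541 and 1576 CPM in wild-type stroma. It was the 1 member that lay higher, so none of the other members did. Tjp1, a tight-junction scaffold, had 218 and 198 CPM in null stroma and 199 and 177 CPM in wild-type stroma. Krt18, a simple-epithelium keratin, had 49.5 and 39.8 CPM in null stroma, against 58.6 and 108 CPM in wild-type stroma. Cdh1, which encodes E-cadherin and was looked at for its place among these targets, had 46.5 and 26.7 CPM in null stroma and 42.5 and 72.2 CPM in wild-type stroma. The libraries of the genotypes overlapped for Tjp1 and Cdh1, and 0 of the list were called. In luminal cells the median genotype difference of this list was 0.35.

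The letters CAGGTG, or CACCTG on the other strand, are an E-box form that SNAIL factors bind. They were counted in promoter windows of 300 bases (250 before and 50 after the start; RefSeq, GRCm38.p6), which matched 10171 of the 14718 tested genes by symbol. The sets below were chosen after values were seen and are given as a description. At least 1 such match stood in 17.7% of these windows. The share was 18.2% of 176 windows for genes higher in null stroma at an unadjusted p under 0.05, and 28.1% of 278 windows for genes lower at that p. It was 60.0% of 15 windows for the SNAIL target list, 72.2% of 18 for the luminal list, 12.5% of 16 for the collagens and 0% of 10 for the endothelial list. The gene called, Rpl34-ps1, has no window here. The windows of Epcam (chr17:87635729-87636028), Krt18 (chr15:102027966-102028265) and Ltf (chr9:111019042-111019341), all on the plus strand, are printed as examples from the lists above that hold the letters, with the matches in capitals. A match is a run of letters and not a shown binding site.
Epcam: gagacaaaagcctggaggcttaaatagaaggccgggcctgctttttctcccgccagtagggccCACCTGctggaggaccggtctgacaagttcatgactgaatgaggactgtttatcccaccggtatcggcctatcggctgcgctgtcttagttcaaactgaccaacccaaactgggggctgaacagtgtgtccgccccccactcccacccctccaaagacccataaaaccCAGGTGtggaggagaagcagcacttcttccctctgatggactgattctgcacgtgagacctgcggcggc
Krt18: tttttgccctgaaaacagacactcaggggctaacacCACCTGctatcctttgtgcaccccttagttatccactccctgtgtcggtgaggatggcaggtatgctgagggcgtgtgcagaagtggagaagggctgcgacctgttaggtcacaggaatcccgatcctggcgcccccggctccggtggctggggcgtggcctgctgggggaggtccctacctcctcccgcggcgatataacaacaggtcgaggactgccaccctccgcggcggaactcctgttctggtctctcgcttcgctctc
Ltf: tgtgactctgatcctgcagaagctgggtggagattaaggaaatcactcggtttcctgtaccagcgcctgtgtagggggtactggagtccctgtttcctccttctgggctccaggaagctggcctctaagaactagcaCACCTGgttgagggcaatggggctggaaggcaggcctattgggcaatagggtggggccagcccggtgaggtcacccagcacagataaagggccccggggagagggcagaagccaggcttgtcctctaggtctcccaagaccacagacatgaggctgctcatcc

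Of 14 tested genes of the mitochondrial genome 9 were higher in both null libraries, 0 were lower and 0 were called. Their median log2 fold change was 0.54, or 0.32 with library totals alone, where that of all genes was -0.24. The messenger RNA mt-Co1, of a cytochrome oxidase subunit, had 3449 and 3288 CPM in null stroma, against 2673 and 1992 CPM in wild-type stroma. The ribosomal RNA mt-Rnr2 had 136684 and 123651 CPM in null stroma and 124086 and 115683 CPM in wild-type stroma, and these overlapped. In luminal cells the median genotype difference of the list was -0.43. Several classes other than protein-coding genes lay lower. Of 612 tested genes annotated as TEC, single-exon records still to be checked, 32 were higher and 247 were lower in both null libraries (median -0.59). Antisense genes had a median of -0.59 over 307 tested, lincRNA genes -0.50 over 265 and sense intronic genes -0.44 over 89, beside 0.03 over 12968 protein-coding genes. In luminal cells these classes lay lower too. The medians there were -0.27 for TEC, -0.20 for antisense, -0.35 for lincRNA and -0.19 for sense intronic genes, beside -0.02 for protein-coding genes. Processed pseudogenes, the class of Rpl34-ps1, differed, with a median of -0.37 over 157 tested in stroma and 0 in luminal cells. TEC genes took 0.246% and 0.266% of the counts of null libraries, against 0.377% and 0.459% of those of wild-type libraries. As the library kit amplifies total RNA and the counting strand is not given, reads of such genes may come from a gene on the other strand and cannot be told apart here.

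The 22 cell-division genes summed to 335 and 297 CPM in null stroma, against 243 and 261 CPM in wild-type stroma. Of 20 tested 8 were higher and 2 were lower, 0 were called, and the median was 0.71. With library totals alone the median was 0.47. On log2(CPM + 1) it was 0.37 for F82 alone and 0.15 for F84 alone. In luminal cells the median genotype difference of this list was 0.84, so the higher values were not particular to stroma. Pcna, the sliding clamp of DNA replication, had 69.1 and 83.9 CPM in null stroma, against 44.5 and 46.2 CPM in wild-type stroma. Mki67, a protein of dividing cells, had 28.2 and 14.9 CPM in null stroma, against 4.77 and 6.87 CPM in wild-type stroma (adjusted p = 0.952, edgeR). Immediate-early and dissociation stress genes, which respond to tissue handling, gave 9 higher and 4 lower of 25. Their median was 0.17, or -0.10 with library totals alone, where that of all genes was -0.24. Their summed level was 29226.5 and 27874.9 CPM in null stroma and 27235.1 and 22342.9 CPM in wild-type stroma. Of 15 tested genes of the circadian clock 5 were higher and 2 were lower. The median of the clock list was 0.72 in the fit, but -0.04 for F82 alone and 1.04 for F84 alone on log2(CPM + 1). Bhlhe40, a clock repressor, had 404 and 394 CPM in null stroma, against 268 and 215 CPM in wild-type stroma.

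At 12 months the stromal libraries gave Snai2 at 0 and 0.202 CPM in null mice (A5 and A6), against 17.4 and 22.9 CPM in wild-type mice (A1 and A2), on a scale over all libraries. The null library A5 goes against its stromal label by Krt14, at 1025 CPM, and by Col1a1, at 23.9 CPM. Its Postn level, 1616 CPM, lay close to the 1733 CPM of A6. Values of the other null library, A6, are set beside the wild-type ones with no test. Epcam lay at 387 CPM in A6, against 67.5 and 189 CPM in wild-type stroma. The part of epithelial RNA in the A6 values was not tested. Ltf had 37.7 CPM in A6, against 25.6 and 11.9 CPM in wild-type stroma. Sytl1 had 8.28 CPM in A6, against 7.90 and 5.04 CPM in wild-type stroma. Kif1a had 49.9 CPM in A6, against 35.0 and 37.1 CPM in wild-type stroma. Col1a1 had 783 CPM in A6, against 1252 and 1573 CPM in wild-type stroma. Of these 4 genes, Kif1a lay on the same side in A6 at 12 months as in both null libraries at 3 months. Among other protein-coding genes named above, Hsph1, Gapdh, Pianp, Vezt and Suv420h1 did so too. Spsb1, Stk17b, Slc12a2, Trpm4, Cav2, Zkscan3, Sema4d and Postn lay on the opposite side. Rad52 and Odc1 lay between the wild-type values.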

How the data were processed

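The data are RNA counts of sorted mammary cells, 26 libraries in all, of which the 12 of 3-month mice entered the fit and 4 stromal ones the comparison. Per the labels' protocols, cells were pooled from 3 mice, sorted by EpCAM and CD49f, and cDNA was amplified from their RNA by NuGEN Ovation V2 before library construction. TopHat2 2.0.13 (alignment, build GRCm38) and HTSeq (counting) are named in the submitters' processing notes, with neither settings nor strand. The authors deposited raw counts for 45706 genes, of which 45143 matched the GENCODE vM21 annotation.

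Genes were kept by filterByExpr of edgeR (minimum count 10, minimum total 15), libraries were scaled by TMM, and a robust quasi-likelihood model with 6 group coefficients was fitted. Fractions of a pool count as independent in it. The labels name no batch, and genotype is carried by separate pools. Pools lie within a genotype, so a pool cannot be a fixed block for it. Pool numbers mark the same mice across fractions. Deviations of same-pool stromal and luminal libraries correlated at 0.281 for null pools and -0.0524 for wild-type pools, and stromal libraries with the other fraction of the pool at 0.178 and 0.119. With 2 libraries per group each genotype gives a single value, so these correlations do not test whether fractions share mice. With 2 against 2 libraries the smallest two-sided exact permutation p is 0.333, so single genes were tested only in the model. p-values measure the spread between pools of mice within a group, shared over the 12 libraries of all fractions. This spread is not that of stroma alone. With only the stromal libraries compared in the edgeR fit, the adjusted p of Ltf was 0.0313 in place of 0.952. That of Rpl34-ps1 moved the other way, to 0.0313 from 0.00943. The count ratio interval and depth limits cover counting error only.

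The genes named were the 10 of largest change each way among called genes with separated libraries and a mean of 10 CPM or more in either genotype, filled with genes of smallest p where fewer were called, leaving out numbered models and clones. Added to these were up to 4 members of each described list, Snai2, Snai1, Col1a1, Postn and both pseudogenes. The lists, the comparison and these genes were chosen with earlier results of these data known. The fit was tested on simulated data. Alternatives were other sets of libraries, RLE scaling, library totals alone, no low-count filter, DESeq2, limma voom with and without the pool as a block, and each stromal library left out. Tools were edgeR 4.0.16, DESeq2 1.42.0 and limma 3.58.1 under R 4.3.3, and matplotlib 3.10.9 and Biopython 1.88 under Python 3.11.15.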

Additional observations from a re-analysis of the deposited data

Results flagged for a closer look

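Both pseudogenes were also measured in libraries outside the comparison, the 12-month ones, where most but not all null libraries lay above the wild-type ones. Rpl34-ps1 lay above every wild-type library of the series in 7 of 8 null 12-month libraries, which ranged from 0.404 to 30.7 CPM with a median of 23.1, against at most 1.16 CPM in wild-type libraries. Rps2-ps10 did so in 7 of 8 as well, with a range of 2.83 to 43.2 CPM and a median of 26.3, against 2.75 to 7.97 CPM in wild-type libraries. In both cases the exception was the null stromal library A6, with 0.404 CPM of Rpl34-ps1 and 2.83 CPM of Rps2-ps10. The same library had Snai2 at 0.202 CPM.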

How the results depend on the processing

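The count of called genes, 1 in the comparison of null with wild-type stroma, moved with the libraries and the tool. It was 0 with all 26 libraries sharing the spread, 2 without the 2 doubted A5 libraries (Rpl34-ps1 and Rps2-ps10), 2 with the 4 stromal libraries alone (Rpl34-ps1 and Ltf) and 3 with stroma of both ages without A5 (those with Snai2). DESeq2 called 6, among them Rpl34-ps1, Rps2-ps10, Ltf and Sytl1. Without a filter on low counts 54 genes were called, 23 higher and 31 lower, including Snai2, Ltf, Sytl1, Kif1a and Hsph1; the cause was not tested. limma voom called 0 with the pool as a random replicate block (536 to 539 genes had an unadjusted p under 0.05), and 0 without a block. Its consensus correlation within pools was 0.131. With each stromal library left out in turn the count was 0 to 1, and 0 without F79 or F81, where Rpl34-ps1 had adjusted p-values of 0.11 and 0.13. Its adjusted p ran from 1.3e-11 to 0.48 over the 14 alternatives. The count stayed at 1 under RLE scaling and library totals alone, the last chosen after seeing the data, as was voom without a block. For the difference between stroma and luminal cells the count was 0 in the fits tried, a fixed replicate block of pools included (471 genes at an unadjusted p under 0.05), except without the low-count filter, where it was 4 (Bdnf, Csn1s1, Csn1s2a and Csn2). All 23 named genes kept their direction in 14 alternatives. All had separated libraries, for most a condition of being named, so these fits could hardly reverse a direction. Snai2, at 4 counts against 185, was called in 2 of the 14 alternatives and not in the reported fit. A gene that misses the threshold is not shown to lie at equal levels.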
